A study of Caenorhabditis elegans with 9 samples.

Results

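RNA from whole worms treated with RNA interference (RNAi) against B0395.3 was compared with RNA from worms given the empty vector L4440. The comparison takes 6 of the 9 libraries of the series, chosen by the RNAi label, with 3 libraries in each group. All were wild-type N2 hermaphrodites of Caenorhabditis elegans at 5 days of age, so the groups shared strain, sex and age and differed in the RNAi label. The other 3 libraries came from worms treated against H28O16.1, the sequence name of atp-1, which encodes the alpha subunit of mitochondrial ATP synthase, and they serve here as a direct second comparison. The labels do not say how many worms entered a library, whether separate cultures were used for the libraries of a group, or which part of B0395.3 the construct covered. The spread behind the p-values is that between libraries and may be technical.

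B0395.3 belongs to the carnitine acyltransferase family. These enzymes move acyl groups between coenzyme A and carnitine, and in mitochondria and peroxisomes this exchange lets fatty acids and short acyl chains cross membranes before and after beta-oxidation. In worms, most fat is made, stored and burned in the intestine, which also makes yolk for the oocytes. RNAi lowers an mRNA by degradation, so the level of the targeted mRNA checks the labels.

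Expression is given as CPM, the read count of a gene divided by the library total and set to a common total, scaled for library composition, and 14622 of the 46748 listed genes passed the filter on low counts. The libraries held 37279334, 38820251 and 40227801 counts in L4440 and 40990685, 34805871 and 40416687 counts in B0395.3, so the groups were of like depth. Across genes, log2 CPM correlated with r of 0.996 to 0.997 within B0395.3, 0.995 to 0.996 within L4440 and 0.987 to 0.990 between these groups. The first principal component of the 6 libraries held 62.6% of the variance and set L4440 (-27.9 to -23.6) apart from B0395.3 (24.5 to 27.9). No library lay with the other group. Counts assigned to rRNA took 0.0869%, 0.102% and 0.0883% of the L4440 libraries and 0.223%, 0.206% and 0.294% of the B0395.3 libraries, so rRNA carry-over differed between the groups without overlap, and its part in the results was not tested.

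Differences are given as log2 fold changes (log2FC), B0395.3 over L4440, with their standard error (SE). The test called 3976 genes different between B0395.3 and L4440 at an adjusted p under 0.05, or 27.2% of the genes tested. Of these, 1836 were higher (12.6% of the genes tested) and 2140 were lower (14.6%). This balance turned with the scaling: the counts were 1954 higher and 1971 lower with RLE scaling and 2100 higher and 1835 lower with upper-quartile scaling. Most differences were small: 58.4% of the called genes differed by less than 1.5-fold, and the median size was 0.48 log2 units among higher and 0.49 among lower genes. More than 2-fold differences were found for 648 genes (4.43%), 247 of them higher (1.69%) and 401 lower (2.74%). Abundant genes were more often lower than higher: among genes above 100 CPM, 22.4% were called lower and 7.21% higher. The median over all genes tested was 0.01. The groups did not overlap for 6887 genes (47.1% of those tested), which is the background for any count of genes without overlap. Of the 3976 called genes, 3942 did not overlap, so a lack of overlap adds little to a call.

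**Figure D1:**
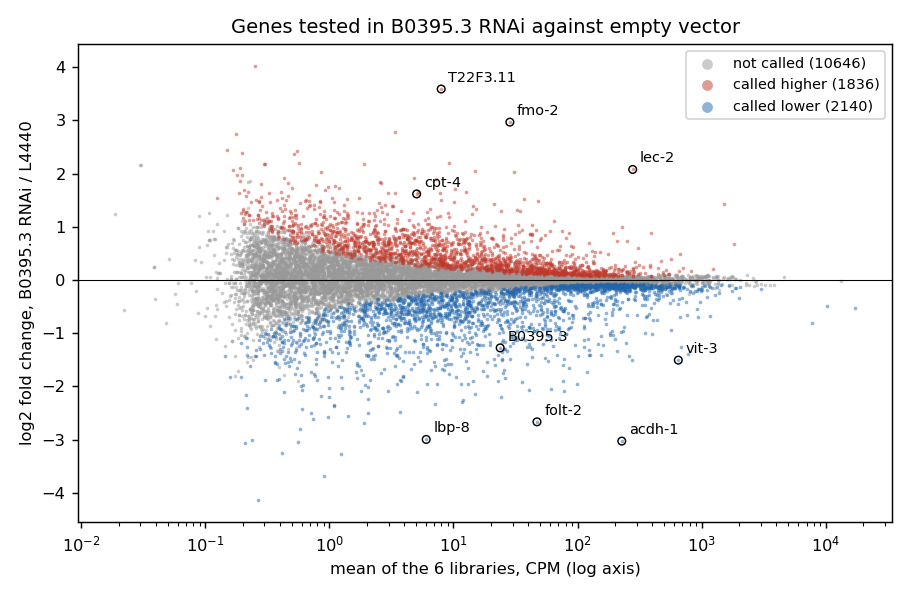
Log2 fold change of each of the 14622 genes tested (vertical axis, B0395.3 RNAi over L4440) against its mean over the 6 libraries in CPM (horizontal log axis). Red points were called higher (1836), blue points lower (2140) and grey points were not called, and the labelled genes are named in the text.

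The targeted mRNA was lower in every library labelled B0395.3. In the WBcel235 build, B0395.3 (WBGene00007175) occupies bases 16035036 to 16040257 of chromosome X, on the minus strand, with 3 annotated transcripts of 11 to 12 exons. Its mRNA stood at 33.0, 35.6 and 32.3 CPM in the 3 L4440 libraries and at 12.5, 16.5 and 12.8 CPM in the 3 B0395.3 libraries (log2FC -1.28, SE 0.10, adjusted p = 7.36e-07). There was no overlap, and the treated libraries kept a measurable level. It was also lower than in H28O16.1, where it stood at 24.7, 23.6 and 28.4 CPM (log2 difference -0.88, SE 0.10, adjusted p = 4.66e-06). Reads from the construct, if any, would be counted with the gene.

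The 6 nearest genes that passed the filter lay between 9616 and 31308 bases from B0395.3. Both closest ones were called lower. The carboxypeptidase D relative cpd-2 changed by -0.55 (SE 0.11, adjusted p = 0.0017) and the sodium-proton exchanger gene nhx-1 by -0.75 (SE 0.19, adjusted p = 0.0108). T27A8.2 (-0.07), VB0395L.1 (-0.52), C09G1.4 (-0.15) and linc-7 (-0.07) were not called. Of the 2085 genes tested on chromosome X, 16.2% were called lower. Among these calls, that of nhx-1 without L4440 replicate 2 or B0395.3 replicate 3 (adjusted p = 0.0515 to 0.0537) was lost. Whether the construct shares sequence with these genes was not tested.

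The carnitine family changed in both directions. Of its 15 measured genes, 5 were called higher and 5 lower, B0395.3 itself included, with a median of -0.04. Each count was 33.3% of the list, against 12.6% higher and 14.6% lower among all genes tested. The largest rise belonged to cpt-4, a carnitine palmitoyltransferase relative, at 2.64, 2.81 and 1.998 CPM in L4440 and 7.87, 8.31 and 6.67 CPM in B0395.3 (log2FC 1.62, SE 0.17, adjusted p = 1.38e-05). Every treated library lay above every control library for cpt-4 and also for cpt-6, another member of that family, which stood at 37.9, 35.5 and 36.8 CPM in L4440 and 48.3, 49.9 and 47.6 CPM in B0395.3 (log2FC 0.40, SE 0.05, adjusted p = 5.23e-05). The gene gbh-2, which encodes a gamma-butyrobetaine hydroxylase relative of carnitine synthesis, rose by 0.49 (adjusted p = 0.00058), and the acyltransferase relative T20B3.1 rose by 0.43 (adjusted p = 0.00187).

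The members with the highest levels per kilobase of exon differed little. The mitochondrial carnitine palmitoyltransferase genes cpt-1 and cpt-2 stood at 366, 390.3 and 371 CPM and 212, 211 and 205 CPM in L4440. In B0395.3 they stood at 336, 365 and 345 CPM and 193, 196 and 181 CPM. Only the second was called (cpt-2 -0.14, adjusted p = 0.00671; cpt-1 -0.11, adjusted p = 0.0567). The carnitine carrier gene dif-1 was called at -0.11, cpt-5 at -0.38, F41E7.6 at -0.72 and the second hydroxylase relative gbh-1 at 0.27, all with adjusted p between 0.0197 and 0.0431. Among these calls, that of dif-1 without L4440 replicate 1 or 2 or B0395.3 replicate 1 or 2 (adjusted p = 0.0532 to 0.0917), that of cpt-5 without L4440 replicate 2 or 3 or B0395.3 replicate 2 or 3 (adjusted p = 0.0557 to 0.0871), that of F41E7.6 in each of the 6 fits that left out 1 library (adjusted p = 0.0571 to 0.131) and that of gbh-1 in each of the 6 fits that left out 1 library (adjusted p = 0.0542 to 0.164) were lost. The organic cation transporter genes oct-1 (-0.16) and oct-2 (0.17), cpt-3 (-0.04) and W03F9.4 (0.31) were not called. Per kilobase of exon, mean levels in L4440 were 134 CPM for cpt-1, 98.0 for cpt-2, 15.5 for cpt-6, 10.97 for B0395.3 and 1.07 for cpt-4, with dif-1 at 88.1, so 4 of the 15 members stood above the targeted gene. Members called lower numbered 2 to 3 in the 6 fits that each left out 1 library. DESeq2 called 3 lower.

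**Figure D2:**
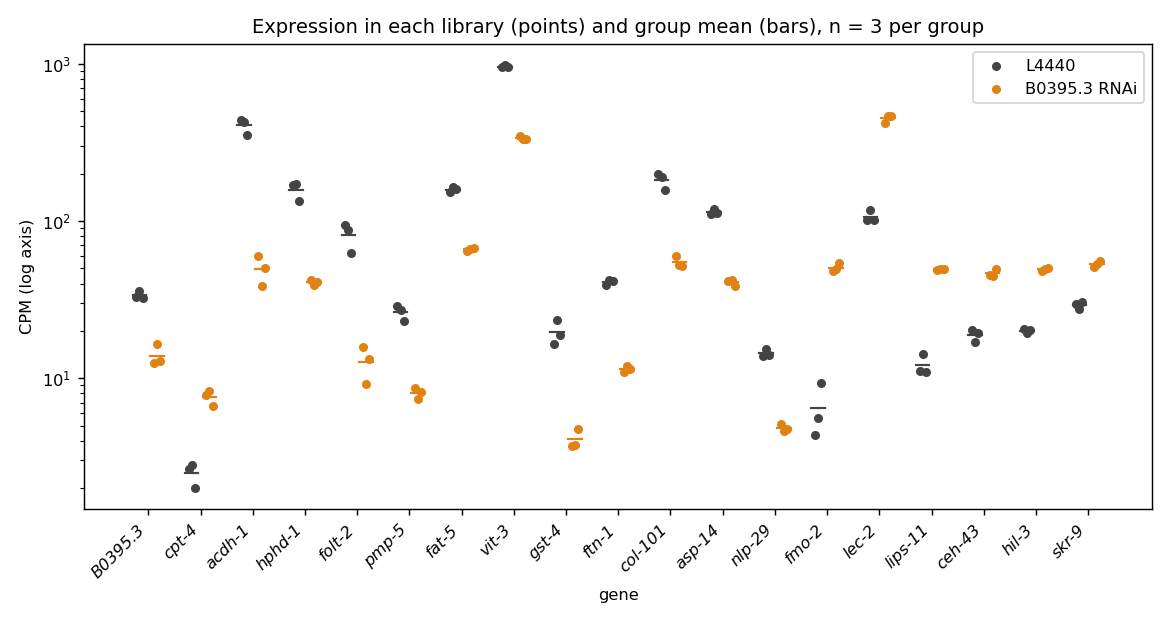
CPM of 19 named genes in each library (points, log axis), with the mean of each group as a short bar, for L4440 (dark) and B0395.3 RNAi (orange), n = 3 per group. For each of these genes the groups do not overlap. acdh-1 falls from between 354 and 435 CPM to between 38.6 and 59.8 CPM, and lec-2 rises from between 101 and 117 CPM to between 418 and 466 CPM.

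The propionate shunt was lower at each enzyme step on the list. This route breaks down propionate when the vitamin B12-dependent route is short of capacity, and its first gene, acdh-1, is a common reporter of the diet. Of the 8 measured genes of the shunt and its regulators, 0 rose and 7 fell, against 14.6% of all genes tested. The propionyl-CoA dehydrogenase gene acdh-1 stood at 435, 425 and 354 CPM in L4440 and 59.8, 38.6 and 49.9 CPM in B0395.3 (log2FC -3.03, SE 0.14, adjusted p = 8.53e-09). The hydratase gene ech-6 stood at 236, 244 and 214 CPM and 148, 149 and 146 CPM (log2FC -0.65, SE 0.05, adjusted p = 1.18e-06). The hydrolase gene hach-1 went from 151, 162 and 147 CPM to 94.0, 94.3 and 93.4 CPM (log2FC -0.71, SE 0.04, adjusted p = 2.58e-08). No treated library reached a control library for these 3 genes, and L4440 replicate 3 was the lowest control for each.

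Later steps and 2 of the 3 regulators were lower as well. The dehydrogenase gene hphd-1 stood at 169, 173 and 133 CPM in L4440 and 42.2, 39.4 and 40.996 CPM in B0395.3 (log2FC -1.95, SE 0.08, adjusted p = 6.43e-09). The semialdehyde dehydrogenase gene alh-8 fell by 0.29 (adjusted p = 0.000418). Among the nuclear hormone receptors known to act on this pathway, nhr-68 went from 32.2, 30.4 and 28.9 CPM to 16.8, 15.99 and 18.3 CPM (log2FC -0.84, SE 0.07, adjusted p = 1.84e-06). A receptor linked to vitamin B12 and methionine supply, nhr-114, went from 17.99, 17.4 and 13.5 CPM to 8.20, 7.25 and 8.27 CPM (log2FC -1.04, SE 0.11, adjusted p = 1.37e-05). The third receptor, nhr-10, stood at 29.7, 28.2 and 28.2 CPM and 30.4, 28.4 and 29.9 CPM and was not called (adjusted p = 0.57). Of the 8 genes of the vitamin B12-dependent route and of cobalamin handling, 3 were called lower and none higher, with sizes of -0.19 for the propionyl-CoA carboxylase subunit gene pccb-1, -0.19 for the epimerase gene mce-1 and -0.12 for the mutase gene mmcm-1. Among these calls, that of mmcm-1 without L4440 replicate 2 or 3 or B0395.3 replicate 1 or 3 (adjusted p = 0.059 to 0.0878) was lost. In the main test, 37.5% of this list fell, against 14.6% of all genes tested.

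In the methionine cycle and folate list, 11 of 19 genes fell (57.9%, against 14.6% of all genes tested) and 0 rose (median -0.16). The folate transporter family gene folt-2 stood at 93.8, 87.6 and 62.9 CPM in L4440 and 15.7, 9.22 and 13.2 CPM in B0395.3 (log2FC -2.66, SE 0.18, adjusted p = 2.62e-07). The S-adenosylmethionine synthetase gene sams-1 stood at 64.6, 58.3 and 41.9 CPM and 23.9, 22.3 and 23.0 CPM (log2FC -1.25, SE 0.13, adjusted p = 1.35e-05). For both genes the third control library was the lowest control and still lay above all treated libraries. The methyltransferase gene pmt-2, which acts in phosphatidylcholine synthesis, went from 152, 156 and 132 CPM to 78.6, 76.8 and 80.8 CPM (log2FC -0.90, SE 0.06, adjusted p = 2e-07). The cystathionine gamma-lyase genes of the transsulfuration route fell as well (cth-2 -0.83, cth-1 -0.44). Smaller falls were called for the hydrolase gene ahcy-1 (-0.33), the reductase gene mthf-1 (-0.16) and the hydroxymethyltransferase gene mel-32 (-0.15). Not all of the 11 genes called lower are named here, and 3 of these 11 falls exceeded 2-fold. Of the 19 measured genes of the list, 8 were not called.

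Genes of fatty acid breakdown fell, mostly by small amounts. Of 27 acyl-CoA dehydrogenase, hydratase and thiolase genes, 15 were called lower and 0 higher (median -0.19). The falls were 55.6% of the list, against 14.6% of all genes tested, and 2 of them exceeded 2-fold. Besides acdh-1 and ech-6, the hydratase gene ech-7 (-0.48), the hydroxyacyl-CoA dehydrogenase gene hacd-1 (-0.49) and the thiolase genes acaa-2 (-0.24) and kat-1 (-0.24) fell. Of 20 acyl-CoA synthetases, which activate fatty acids, 10 fell (50%) and 1 rose (5%). Of the falls 2 exceeded 2-fold, and the lowest log2FC of the list was -1.40. acs-1 stood at 228, 227 and 237 CPM in L4440 and 154, 161 and 160.0 CPM in B0395.3 (log2FC -0.54, SE 0.03, adjusted p = 5.76e-08). acs-5 (-0.64) and acs-12 (-0.58) changed by like amounts.

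Genes of peroxisomal beta-oxidation included larger falls. Peroxisomes shorten very long fatty acids and the side chains of ascarosides, the pheromones of the worm. Of 18 measured genes 10 fell (55.6%, against 14.6% of all genes tested) and 0 rose, and 3 of the falls exceeded 2-fold. The ABC transporter gene pmp-5 stood at 28.9, 26.98 and 23.1 CPM in L4440 and 8.71, 7.40 and 8.12 CPM in B0395.3 (log2FC -1.70, SE 0.09, adjusted p = 2.63e-08). The acyl-CoA oxidase gene acox-1.4 went from 16.12, 18.7 and 18.8 CPM to 7.77, 7.71 and 8.34 CPM (log2FC -1.17, SE 0.08, adjusted p = 2.9e-07), and acox-1.5 from 74.9, 72.9 and 74.5 CPM to 41.9, 37.1 and 38.8 CPM (log2FC -0.91, SE 0.07, adjusted p = 3.62e-07). These oxidases carry out the first step of peroxisomal oxidation. Lower values were also called for acox-1.2 (-0.98), acox-1.3 (-1.22) and the transporter gene pmp-2 (-0.55). The thiolase gene daf-22, needed for ascaroside side chains, fell by 0.24. None of these genes overlapped between the groups.

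Fat synthesis and yolk genes were lower too. Of 23 genes of fatty acid synthesis, elongation and desaturation, 12 fell (52.2%) and 1 rose (4.35%), with a median of -0.17. The shares over all genes tested were 14.6% and 12.6%. The palmitoyl-CoA desaturase gene fat-5 stood at 152, 163 and 159 CPM in L4440 and 64.1, 66.4 and 67.5 CPM in B0395.3 (log2FC -1.26, SE 0.06, adjusted p = 6.63e-09). The stearoyl-CoA desaturase gene fat-7 went from 68.3, 82.5 and 85.8 CPM to 36.4, 39.6 and 38.9 CPM (log2FC -1.04, SE 0.07, adjusted p = 1.85e-07). The elongase genes of branched-chain fatty acids, elo-6 and elo-5, changed by -0.9998 and -0.49. The delta-6 desaturase gene fat-3 rose, from 78.7, 83.9 and 84.3 CPM to 105, 109 and 109 CPM (log2FC 0.39, SE 0.04, adjusted p = 1.39e-05), and the omega-3 desaturase gene fat-1 fell by 0.17. The triglyceride synthesis gene dgat-2 fell by 0.59. F41H10.3 covers 17.6% of the exon bases of elo-5.

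Among 29 lipases and lipid chaperones, 4 rose (13.8%) and 11 fell (37.9%). The shares over all genes tested were 12.6% and 14.6%, so the rises lay near background. The lysosomal lipid chaperone gene lbp-8 stood at 10.3, 11.6 and 10.3 CPM in L4440 and 1.17, 1.51 and 1.36 CPM in B0395.3 (log2FC -2.995, SE 0.14, adjusted p = 1.04e-08). The lysosomal lipase gene lipl-5 stood at 435, 497 and 472 CPM and 219, 234.9 and 251 CPM (log2FC -0.99, SE 0.06, adjusted p = 4.1e-08), and lipl-2 fell by 0.63. The lipase-related gene lips-11 went the other way, from 11.1, 14.2 and 10.9 CPM to 48.9, 49.4 and 49.1 CPM (log2FC 2.03, SE 0.08, adjusted p = 3.35e-09). The fatty acid-binding protein genes split likewise: lbp-6 (-0.72), lbp-3 (-0.37) and lbp-2 (-0.35) fell, and lbp-1 rose (0.62). Other genes cover 6.64% of the exon bases of lbp-6. Members called higher numbered 2 without B0395.3 replicate 3.

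All 6 vitellogenin genes, which encode the yolk proteins made in the intestine, were lower. vit-3 stood at 950.2, 979 and 947 CPM in L4440 and 345, 334 and 333 CPM in B0395.3 (log2FC -1.51, SE 0.04, adjusted p = 2.85e-10), and its close copy vit-4 at 1102, 1151 and 1102 CPM and 422, 437 and 425 CPM (log2FC -1.39, SE 0.04, adjusted p = 3.84e-10). Reads can be shared between these copies. vit-1 went from 997, 1006 and 869.8 CPM to 411, 388 and 402 CPM (log2FC -1.26, SE 0.06, adjusted p = 1.04e-08). The gene vit-6 went from 20173, 21257 and 19900 CPM to 13932, 14715 and 14047 CPM (log2FC -0.52, SE 0.05, adjusted p = 3.19e-06). vit-5 (-0.80) and vit-2 (-0.49) completed the family. The vitellogenins together took 4.34%, 4.50% and 4.38% of the counts of the L4440 libraries and 2.92%, 3.06% and 3.00% of the B0395.3 libraries. The groups did not overlap, and the exact permutation test gave p = 0.1, two-sided, the smallest that 3 against 3 libraries allow. The regulator gene pqm-1 rose (0.42, adjusted p = 4.75e-05), while the regulator gene unc-62 (0.09) was not called. The oocyte yolk receptor gene rme-2 stood at 1466, 1506 and 1450 CPM and 1370, 1411 and 1354 CPM (-0.10, adjusted p = 0.0374). Among these calls, that of rme-2 without L4440 replicate 1 or 2 or 3 or B0395.3 replicate 1 or 3 (adjusted p = 0.0542 to 0.175) was lost. In whole animals, fewer cells of a type and less RNA per cell cannot be told apart, here and in all that follows.

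Markers of several tissues moved beside these families. As background, 12.6% of all genes tested were called higher and 14.6% lower. The germ line (12.5% lower) and neuron (12.5% higher) counts given below lay near these shares. Of 7 measured intestine markers, 5 were called lower and 0 higher, and their summed level was 900.0 to 994 CPM in L4440 and 593 to 607 CPM in B0395.3. The defining transcription factor gene elt-2 stood at 9.74, 9.44 and 9.51 CPM and 10.4, 9.28 and 9.53 CPM and was not called, and the intermediate filament gene ifb-2 was not called either (0.18). The esterase gene ges-1 (-0.59), the proton pump gene vha-6 (-0.66), the intestinal actin gene act-5 (-0.50), the protease gene asp-1 (-0.74) and the transporter gene pgp-1 (-1.13) fell. No marker of the 12 cell types was at 0 in all 6 libraries but the embryo gene med-2. Muscle markers summed to 925 to 1117 CPM in L4440 and 612 to 687 CPM in B0395.3, with 6 of 8 lower, and hypodermis markers to 233 to 261 CPM in L4440 and 200.5 to 208 CPM in B0395.3, with 2 of 8 lower. Pharynx markers summed to 59.7 to 63.5 CPM in L4440 and 77.4 to 84.5 CPM in B0395.3, with 4 of 7 higher, and embryo markers to 63.0 to 66.7 CPM in L4440 and 81.8 to 84.4 CPM in B0395.3, with 3 of 6 higher and 1 lower. Germ line markers (2888 to 2947 CPM in L4440 and 2811 to 2905 CPM in B0395.3; 1 of 8 lower) and neuron markers (287 to 295 CPM in L4440 and 296 to 320.3 CPM in B0395.3; 1 of 8 higher) had medians of -0.02 and 0.09. The part that these shifts play in the other results was not tested.

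**Figure D3:**
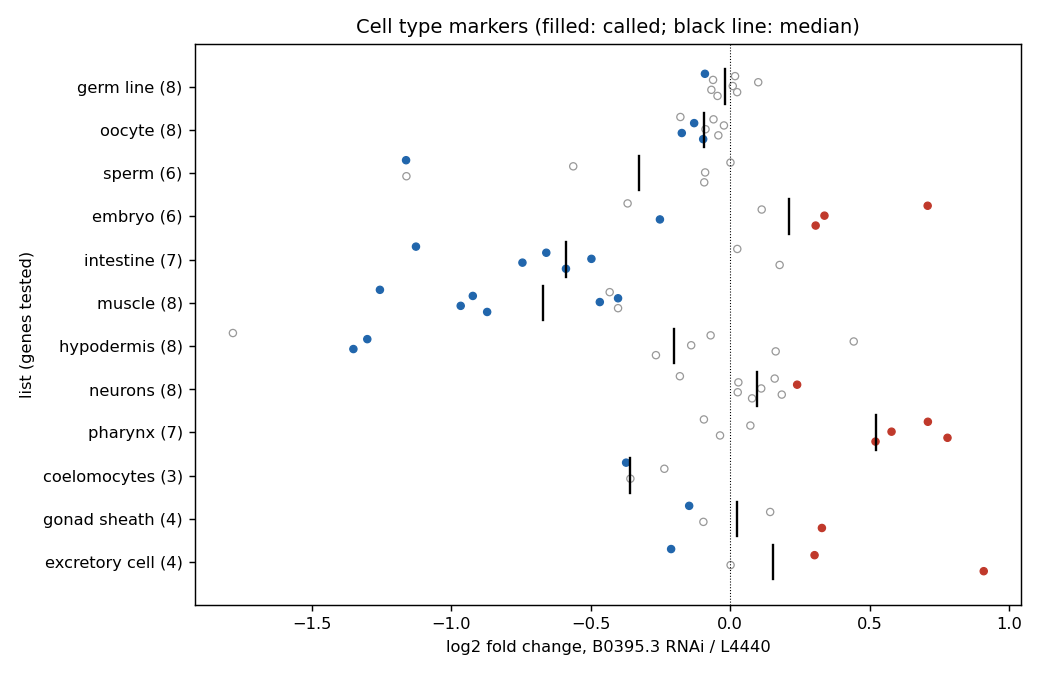
Log2 fold changes (B0395.3 RNAi over L4440) of marker genes of 12 cell types, 1 point per gene; filled red and blue points were called higher and lower, open points were not called, and black lines are medians. Intestine and muscle markers lie mostly below 0, with medians of -0.59 and -0.67, and pharynx markers mostly above, with a median of 0.52.

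Genes of sugar metabolism were lower, with a small median change in glycolysis and larger falls of single genes. Of 18 glycolysis genes 13 fell (72.2%, against 14.6% of all genes tested) and 0 rose (median -0.19). The glyceraldehyde phosphate dehydrogenase genes led: gpd-2 stood at 94.8, 101 and 89.6 CPM in L4440 and 57.9, 57.8 and 53.97 CPM in B0395.3 (log2FC -0.75, SE 0.06, adjusted p = 9.03e-07), and gpd-3 fell by 0.71. The pyruvate kinase gene pyk-1 (-0.28) and the enolase gene enol-1 (-0.25) fell less. In the list of gluconeogenesis, glyoxylate cycle and trehalose genes, 8 of 13 fell (61.5%) and 1 rose (7.69%). The median was -0.30, and 1 of the falls exceeded 2-fold. The glyoxylate cycle gene icl-1 stood at 237, 267 and 225 CPM and 109, 136 and 112 CPM (log2FC -1.03, SE 0.10, adjusted p = 4.51e-06). The carboxykinase genes pck-1 and pck-2 changed by -0.93 and -0.66, and the fructose bisphosphatase gene fbp-1 fell by 0.39. The exception was tre-5, a trehalase gene, which went from 2.70, 2.59 and 2.48 CPM to 4.81, 4.997 and 5.04 CPM (log2FC 0.93, SE 0.12, adjusted p = 6.13e-05).

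Genes of mitochondrial machinery differed mostly by small amounts, and the share called varied between the lists. In the tricarboxylic acid cycle 13 of 28 genes fell, 0 rose and the median was -0.10. The isocitrate dehydrogenase subunit gene idhg-2 fell by 0.85 and the aconitase gene aco-2 fell by 0.19. Of the 33 nuclear genes of respiratory complex I, 1 was called higher (ndua-8, 0.16, adjusted p = 0.0251). Of 12 ATP synthase genes 5 were called lower. These were 46.4% of the cycle list and 41.7% of the ATP synthase list, against 14.6% of all genes tested. ATP synthase genes called lower numbered 2 without L4440 replicate 1 or B0395.3 replicate 1 and 1 without L4440 replicate 2 or B0395.3 replicate 3. In that list, atp-1 stood at 1966, 2003 and 1864 CPM in L4440 and 1766, 1810 and 1710 CPM in B0395.3. Among these calls, that of ndua-8 without L4440 replicate 3 or B0395.3 replicate 1 or 3 (adjusted p = 0.0937 to 0.103) and that of atp-1 without L4440 replicate 1 or 2 or B0395.3 replicate 1 or 3 (adjusted p = 0.0662 to 0.119) were lost. Of 15 genes of the mitochondrial unfolded protein response, which rises when mitochondria are disturbed, 0 rose and 1 fell. The chaperone gene hsp-6, its usual reporter, stood at 999, 986 and 882 CPM and 996, 996 and 900.3 CPM (log2FC 0.01, SE 0.06, adjusted p = 0.896). Of all genes tested, 27.2% were called.

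Genes of drug and toxin handling were mostly lower. Of 63 cytochrome P450 genes 25 fell and 3 rose (median -0.36). Of 60 UDP-glucuronosyltransferase genes, which attach sugars to foreign compounds, 33 fell and 3 rose (median -0.42). Of 41 glutathione S-transferase genes, 19 fell and 0 rose (median -0.28). Falls made up 39.7%, 55% and 46.3% of these families in turn, against 14.6% of all genes tested. Within the first family, cyp-35B1 stood at 12.1, 13.5 and 12.9 CPM in L4440 and 4.40, 5.17 and 4.15 CPM in B0395.3 (log2FC -1.49, SE 0.10, adjusted p = 1.66e-07), and cyp-25A1 at 25.0, 25.8 and 26.5 CPM and 13.1, 12.9 and 12.4 CPM (log2FC -1.01, SE 0.06, adjusted p = 4.75e-08). cyp-37B1 rose, from 6.14, 6.15 and 6.88 CPM to 11.2, 12.1 and 11.95 CPM (log2FC 0.88, SE 0.08, adjusted p = 3.91e-06). In the second family, ugt-62 stood at 152, 124 and 120.2 CPM and 57.1, 55.1 and 58.0 CPM (log2FC -1.22, SE 0.08, adjusted p = 1.62e-07), and ugt-22 (-1.47), ugt-46 (-1.22) and ugt-44 (-1.09) fell. Close members of these families can share reads, and other genes cover part of the exon bases of cyp-35B1 (6.19%, K07C6.16) and ugt-22 (15.5%, srz-29). Glucuronosyltransferases called higher numbered 1 without L4440 replicate 1 or 3 or B0395.3 replicate 2 or 3. The families' summed levels were 926 to 951 CPM in L4440 and 830.1 to 849 CPM in B0395.3 for P450 genes and 757 to 812 CPM in L4440 and 473 to 482 CPM in B0395.3 for glucuronosyltransferases.

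The genes known to follow SKN-1, a transcription factor of the oxidative stress response, fell in 11 of 15 cases and rose in 0 (median -0.66). Falls made up 73.3% of this list, against 14.6% of all genes tested. The usual reporter gst-4 stood at 16.5, 23.6 and 18.9 CPM in L4440 and 3.73, 3.74 and 4.78 CPM in B0395.3 (log2FC -2.26, SE 0.16, adjusted p = 4.22e-07). gst-10 stood at 13.8, 14.6 and 14.0 CPM and 4.52, 3.65 and 4.29 CPM (log2FC -1.76, SE 0.11, adjusted p = 7.95e-08), and the nitrilase gene nit-1 at 8.01, 9.28 and 7.23 CPM and 2.10, 1.86 and 1.75 CPM (log2FC -2.10, SE 0.12, adjusted p = 5.31e-08). No treated library reached a control library for these 3 genes. The glutamate-cysteine ligase gene gcs-1, the limiting step of glutathione synthesis, changed by -0.14 (adjusted p = 0.000768). Genes called lower numbered 7 without L4440 replicate 2. Other genes cover part of the exon bases of gst-4 (8.89%, dhs-12) and nit-1 (8.11%, ZK1058.9).

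Flavin monooxygenases went both ways. fmo-2, known as a target of the hypoxia-inducible factor HIF-1, stood at 4.37, 5.59 and 9.31 CPM in L4440 and 48.0, 49.5 and 54.1 CPM in B0395.3 (log2FC 2.97, SE 0.17, adjusted p = 5.63e-08). All treated libraries lay far above the controls, of which the third was the highest. fmo-3 fell from 15.96, 16.7 and 15.8 CPM to 7.20, 7.68 and 7.25 CPM (log2FC -1.13, SE 0.10, adjusted p = 2.54e-06) and fmo-4 fell by 0.43, while fmo-1 (0.03) and fmo-5 (0.17) were not called. No other gene of the hypoxia list was called higher. Falls made up 50% of it, against 14.6% of all genes tested. Of the 12 genes of that list 6 fell: the cysteine synthase relative cysl-2 went from 40.1, 45.8 and 33.4 CPM to 17.9, 16.99 and 15.7 CPM (log2FC -1.23, SE 0.10, adjusted p = 8.67e-07), and rhy-1 (-0.77), sqrd-1 (-0.71) and phy-2 (-0.49) were lower. The ferritin gene ftn-1, which stores iron and is repressed by HIF-1 in worms, stood at 39.0, 42.2 and 41.6 CPM and 11.03, 12.02 and 11.4 CPM (log2FC -1.83, SE 0.07, adjusted p = 3.35e-09). hif-1 was not called (-0.06, adjusted p = 0.27).

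Iron and heme genes split. The second ferritin gene, ftn-2, fell by 0.37, and the cadmium-responsive genes cdr-2 and cdr-4 changed by -0.95 and -0.82. The heme transporter gene hrg-1 rose from 12.7, 13.7 and 9.23 CPM to 19.3, 16.8 and 19.3 CPM (log2FC 0.64, SE 0.12, adjusted p = 0.00131). The superoxide dismutase gene sod-1 fell by 0.32 and the extracellular sod-4 rose by 0.33. Other genes cover part of the exon bases of sod-1 (11.8%, C15F1.13) and sod-4 (13.4%, ctr-9). Among small heat shock proteins hsp-12.6 rose from 1.29, 1.47 and 1.42 CPM to 3.40, 3.48 and 3.59 CPM (log2FC 1.32, SE 0.12, adjusted p = 3.19e-06), while hsp-43 (-0.63) fell. In the list of HLH-30 targets and lysosome or autophagy genes 7 of 20 rose (35%) and 6 fell (30%). The shares over all genes tested were 12.6% and 14.6%. The transcription factor gene hlh-30 (0.28) and the autophagosome gene lgg-2 (0.18) rose, while mxl-3, of a factor that opposes HLH-30 at lipase genes, fell (-0.78).

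**Figure D4:**
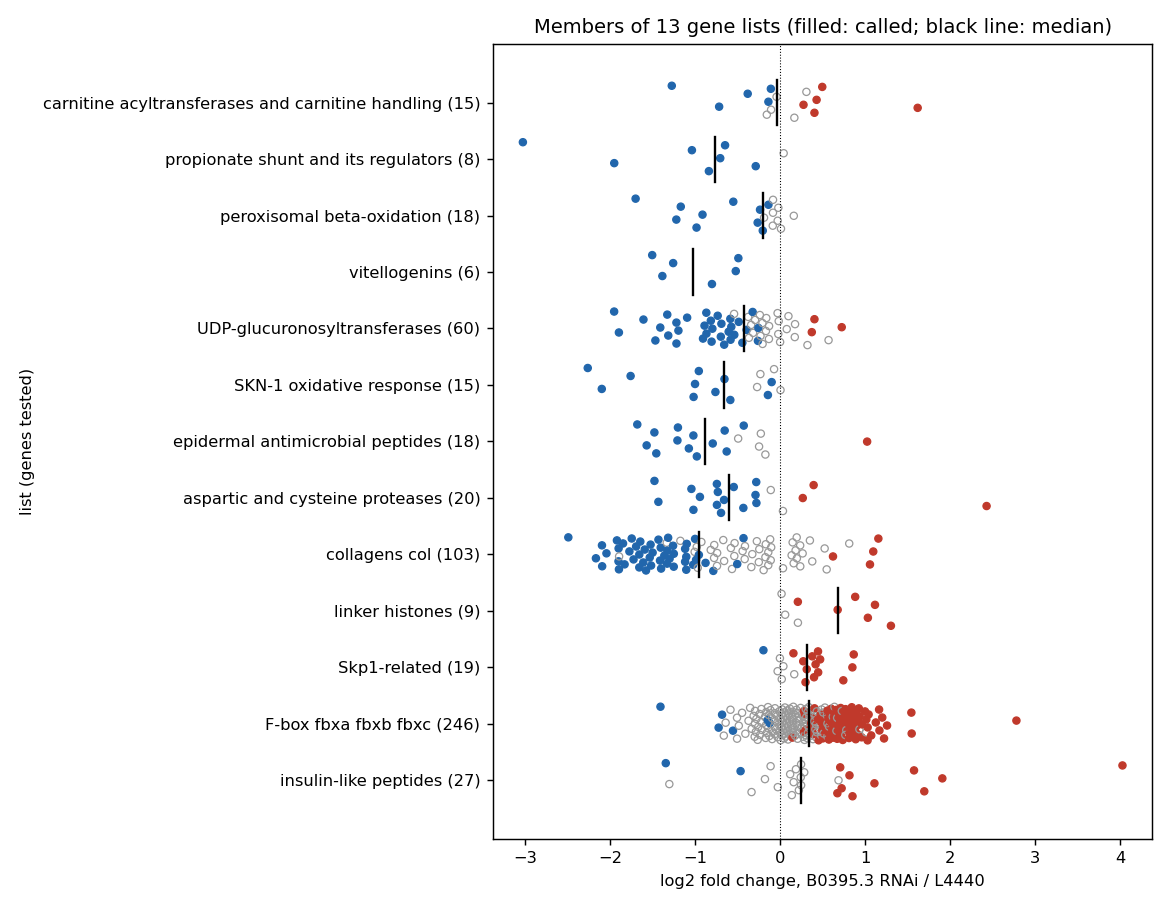
Log2 fold changes (B0395.3 RNAi over L4440) of the measured members of 13 gene lists, 1 point per gene, filled where called and open where not, with the median as a black line. Vitellogenins (median -1.03) and col collagens (median -0.96) lie lowest, and linker histones (median 0.68) lie highest.

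Genes of digestive proteases were mostly lower. Of 20 aspartic and cysteine protease genes, which digest food in the gut lumen and lysosomes, 15 fell (75%) and 3 rose (15%). The median was -0.60, and the shares over all genes tested were 14.6% and 12.6%. Of the falls 4 exceeded 2-fold, and of the rises 1. Over the list, log2FC ran from -1.48 to 2.43. asp-13 stood at 145, 153 and 145 CPM in L4440 and 55.8, 52.9 and 55.2 CPM in B0395.3 (log2FC -1.43, SE 0.04, adjusted p = 2.85e-10), and asp-14 at 111, 118.7 and 112 CPM and 41.7, 42.2 and 38.8 CPM (log2FC -1.48, SE 0.04, adjusted p = 2.85e-10). The cathepsin B relative cpr-9 went from 737, 770.4 and 728 CPM to 377, 396 and 389 CPM (log2FC -0.94, SE 0.04, adjusted p = 6.43e-09). Replicates of these genes lay close together and the groups far apart. asp-2 (-1.04), asp-4 (-0.70) and cpr-6 (-0.55) also fell. Other genes cover 5.36% of the exon bases of asp-2. The summed level of the family was 7563 to 7941 CPM in L4440 and 5399 to 5593 CPM in B0395.3. The intestine marker sum was lower in the same libraries, as given above.

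Immune effector genes fell more often than they rose. Of 117 C-type lectins 42 fell and 11 rose (median -0.22), with clec-265 at 13.2, 12.2 and 11.3 CPM in L4440 and 3.75, 3.71 and 3.98 CPM in B0395.3 (log2FC -1.68, SE 0.13, adjusted p = 5.3e-07) and clec-5 rising from 4.68, 4.599 and 4.91 CPM to 11.5, 9.85 and 11.1 CPM (log2FC 1.19, SE 0.08, adjusted p = 2.58e-07). In the main test, 35.9% of the lectins fell and 9.40% rose, against 14.6% and 12.6% of all genes tested. Lectins called higher numbered 7 without B0395.3 replicate 1 or 3. Of 12 lysozymes 5 fell and 2 rose, or 41.7% and 16.7% against 14.6% and 12.6% of all genes tested. Their summed level went the other way, from 3199 to 3533 CPM in L4440 to 3556 to 3659 CPM in B0395.3, without overlap. lys-2 went from 273, 254 and 288 CPM to 127, 121.8 and 127 CPM (log2FC -1.11, SE 0.05, adjusted p = 6.43e-09) and lys-7 rose from 1312, 1404 and 1494 CPM to 2301, 2185 and 2227 CPM (log2FC 0.67, SE 0.05, adjusted p = 5.52e-07). Of 22 saposin-like genes 11 fell, spp-23 (-2.09), spp-4 (-1.54) and spp-17 (-1.21) among them, and 4 rose, with spp-31 at 0.92 and spp-2 at 0.49. In the list of infection response and dod genes 11 of 17 fell and 2 rose, with a highest log2FC of 0.64. Among the falls were irg-4 (-1.81), irg-6 (-1.35) and irg-5 (-1.32).

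Peptides of the epidermis fell too. Of 18 nlp and cnc antimicrobial peptide genes 13 fell (72.2%, against 14.6% of all genes tested) and 1 rose (median -0.89). nlp-29, the usual reporter of epidermal infection and wounding, stood at 13.8, 15.3 and 14.1 CPM in L4440 and 5.14, 4.597 and 4.75 CPM in B0395.3 (log2FC -1.57, SE 0.07, adjusted p = 1.05e-08). cnc-4 stood at 31.8, 42.7 and 34.7 CPM and 12.4, 13.5 and 13.2 CPM (log2FC -1.48, SE 0.09, adjusted p = 1.34e-07). The groups did not overlap for either, and cnc-2, cnc-6, cnc-7 and nlp-31 changed by -1.20, -1.68, -1.46 and -1.07. Several of these genes lie in clusters of similar copies. Galectins, which bind beta-galactosides, went both ways. lec-2 rose from 102, 117 and 101 CPM to 418, 465 and 466 CPM (log2FC 2.08, SE 0.10, adjusted p = 1.04e-08), and lec-8 by 0.20. lec-6 fell from 449, 446 and 439.8 CPM to 289, 275 and 273 CPM (log2FC -0.67, SE 0.05, adjusted p = 6.27e-07), and lec-9 (-0.64), lec-5 (-0.72) and lec-4 (-0.56) fell with it.

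Cuticle collagens fell broadly. Of 103 measured col genes, 50 fell (48.5%) and 4 rose (3.88%), against 14.6% and 12.6% of all genes tested. The median was -0.96. Of the falls 44 exceeded 2-fold, while 2.74% of all genes tested were called lower and over 2-fold. col-101 stood at 198, 189.6 and 157 CPM in L4440 and 59.9, 52.8 and 52.0 CPM in B0395.3 (log2FC -1.73, SE 0.08, adjusted p = 1.04e-08). The adult collagen gene col-19 stood at 69.8, 66.9 and 45.3 CPM and 28.2, 21.5 and 23.8 CPM (log2FC -1.30, SE 0.14, adjusted p = 1.1e-05). Another member, col-181, went from 432, 425 and 365 CPM to 153, 144 and 134 CPM (log2FC -1.50, SE 0.07, adjusted p = 1.3e-08). All treated libraries were below all controls for these genes, and the third control library was the lowest control. The col genes took 0.286%, 0.259% and 0.212% of the counts of the L4440 libraries and 0.104%, 0.0888% and 0.0885% of the B0395.3 libraries. Collagen genes resemble each other, so reads may be shared between members. In the 6 fits that each left out 1 library, 43 to 57 col genes were called lower. Col genes called higher numbered 2 without B0395.3 replicate 1 or 2 and 1 without L4440 replicate 2 or B0395.3 replicate 3.

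Body-shape collagens of the dpy, rol, sqt and bli classes are made mainly around larval moults. Their summed level was 37.8 to 73.0 CPM in L4440 and 49.9 to 63.2 CPM in B0395.3, with overlap. Of 19 measured, 4 fell (21.1%, against 14.6% of all genes tested), and a stricter minimum of 50 counts left 0. Members called lower numbered 7 without L4440 replicate 2. In the hedgehog-related and patched-related list, whose members act largely in cuticle and epidermis, 16 of 55 fell (29.1%) and 4 rose (7.27%). The shares over all genes tested were 14.6% and 12.6%. grd-5 stood at 21.5, 19.5 and 17.6 CPM in L4440 and 8.47, 7.02 and 7.54 CPM in B0395.3 (log2FC -1.34, SE 0.09, adjusted p = 1.41e-07), and grl-4 at 5.86, 5.48 and 5.82 CPM and 3.13, 2.97 and 2.91 CPM (log2FC -0.93, SE 0.09, adjusted p = 4.6e-06). Neither gene overlapped between the groups. Hedgehog-related genes called higher numbered 2 without B0395.3 replicate 1 or 2 or 3 and 1 without L4440 replicate 3.

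Of 21 muscle genes 11 fell and 4 rose (median -0.43). The troponin T gene tnt-2 stood at 63.7, 62.1 and 48.7 CPM in L4440 and 23.7, 24.7 and 24.7 CPM in B0395.3 (log2FC -1.26, SE 0.14, adjusted p = 2.12e-05). The troponin C gene pat-10 went from 224, 207 and 187 CPM to 135, 133 and 132 CPM (log2FC -0.63, SE 0.05, adjusted p = 1.79e-06), and the body-wall myosin gene unc-54 from 268, 269 and 218 CPM to 118, 141.9 and 127 CPM (log2FC -0.97, SE 0.17, adjusted p = 0.00108). Controls stood higher in all 3, again with the third control library lowest. Genes of the pharynx, the feeding organ, went the other way: its myosin gene myo-1 rose by 0.71 and its troponin C gene tnc-2 from 5.06, 4.81 and 5.21 CPM to 7.65, 6.995 and 7.85 CPM (log2FC 0.58, SE 0.08, adjusted p = 0.000189). clec-143 covers 19.2% of the exon bases of tnc-2.

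Many F-box and Skp1-related genes, which encode parts of ubiquitin ligases, rose. Of 246 F-box genes of the fbxa, fbxb and fbxc families, whose products choose targets for ubiquitin ligases, 95 rose and 6 fell (median 0.34), against 12.6% of all genes tested. Of 19 Skp1-related genes, which encode the adaptors of these ligases, 13 rose and 1 fell (median 0.31). skr-9 stood at 29.6, 27.6 and 30.4 CPM in L4440 and 51.2, 53.0 and 55.4 CPM in B0395.3 (log2FC 0.87, SE 0.06, adjusted p = 1.67e-07), and skr-7 at 116, 112 and 118 CPM and 155, 161 and 156 CPM (log2FC 0.45, SE 0.03, adjusted p = 3.84e-07). Among F-box genes fbxa-24 stood at 1.07, 0.829 and 0.683 CPM and 5.76, 5.65 and 6.28 CPM (log2FC 2.78, SE 0.16, adjusted p = 6.19e-08) and fbxb-41 at 8.39, 7.49 and 8.83 CPM and 15.04, 15.9 and 14.6 CPM (log2FC 0.88, SE 0.08, adjusted p = 4.27e-06). The groups did not overlap for these genes, which belong to families with close copies. In the 6 fits that each left out 1 library, 75 to 94 F-box genes were called higher. F-box genes called lower numbered 3 without B0395.3 replicate 1 or 2 or 3.

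Histone genes rose more often than they fell. Of 9 linker histones, which bind DNA between nucleosomes, 6 rose and 0 fell (median 0.68). hil-3 stood at 20.4, 19.2 and 20.2 CPM in L4440 and 48.3, 49.7 and 49.8 CPM in B0395.3 (log2FC 1.303, SE 0.05, adjusted p = 2.85e-09), his-24 at 46.3, 37.4 and 37.9 CPM and 87.9, 86.0 and 89.1 CPM (log2FC 1.12, SE 0.07, adjusted p = 8.13e-08), and hil-2 rose by 0.88. Of 22 measured core histone and variant genes 9 rose and 1 fell, of 71 listed. Rises made up 66.7% of the linker list and 40.9% of the core list, against 12.6% of all genes tested. The histone H3.3 genes his-71 and his-72 rose by 0.62 and 0.29. Most core histone mRNAs end without a poly(A) tail, and whether poly(A) selection affected their counts was not tested. M163.16 covers 18.9% of the exon bases of his-24.

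Among genes of the early embryo, more rose than fell. Adult hermaphrodites carry embryos, so a whole-worm library includes embryonic RNA. Of 37 early zygotic genes 12 rose (32.4%) and 4 fell (10.8%), against 12.6% and 14.6% of all genes tested (median 0.16). sdz-28 stood at 31.1, 25.5 and 26.4 CPM in L4440 and 45.3, 44.97 and 45.2 CPM in B0395.3 (log2FC 0.71, SE 0.07, adjusted p = 4.9e-06), and sdz-5 at 3.91, 3.32 and 3.92 CPM and 8.06, 7.85 and 8.32 CPM (log2FC 1.12, SE 0.13, adjusted p = 3.19e-05). Of 51 homeobox genes, which pattern the embryo, 12 rose (23.5%) and 1 fell (1.96%). The homeobox gene mls-2 rose from 3.63, 2.86 and 3.39 CPM to 15.5, 15.1 and 14.98 CPM (log2FC 2.20, SE 0.11, adjusted p = 1.07e-08), ceh-43 from 20.1, 16.9 and 19.3 CPM to 45.3, 44.8 and 49.3 CPM (log2FC 1.31, SE 0.11, adjusted p = 1.06e-06) and ceh-32 from 39.9, 36.0 and 41.6 CPM to 69.9, 69.2 and 72.8 CPM (log2FC 0.85, SE 0.07, adjusted p = 2.08e-06). No control library reached a treated one. The embryo marker pes-10 stood at 14.0, 16.15 and 15.1 CPM and 12.2, 11.9 and 13.9 CPM and was called lower (-0.25, adjusted p = 0.0351). Among these calls, that of pes-10 without L4440 replicate 2 or 3 or B0395.3 replicate 1 or 2 (adjusted p = 0.0896 to 0.157) was lost. W05E10.16 covers 6.77% of the exon bases of ceh-32. Zygotic genes called lower numbered 1 without L4440 replicate 2 or B0395.3 replicate 2 and 2 without L4440 replicate 3 or B0395.3 replicate 3.

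Maternal and germ line genes differed little in size. Of 22 oocyte and eggshell genes 7 were called lower, with log2 fold changes of at least -0.18 over the list. Of 23 P granule and germ line genes 5 fell and 1 rose (21.7% and 4.35%), with a median of -0.05. Of 28 Argonaute and RNAi genes, which include the machinery that RNAi feeding uses, 2 rose and 5 fell (7.14% and 17.9%). Among all genes tested, 12.6% were called higher and 14.6% lower. ppw-2 (0.27) and alg-2 (0.17) rose and ergo-1 fell (-0.17). Oocyte genes called lower numbered 4 without L4440 replicate 1 or B0395.3 replicate 1 or 3 and 3 without L4440 replicate 2, and P granule genes called lower numbered 3 without L4440 replicate 1 or 2 or 3 or B0395.3 replicate 1 or 3, and Argonaute genes called lower numbered 3 without L4440 replicate 1 or 3 or B0395.3 replicate 3 and 2 without B0395.3 replicate 1. Adult hermaphrodites no longer make sperm, and the 38 measured sperm genes summed to 237 to 241 CPM in L4440 and 227 to 232 CPM in B0395.3. Of these 11 were called lower, and DESeq2 called 0. Sperm genes called lower numbered 4 without L4440 replicate 1, 2 without L4440 replicate 2, 1 without B0395.3 replicate 2 and 3 without B0395.3 replicate 3.

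Signalling genes changed in part. Of 27 insulin-like peptide genes 10 rose and 2 fell (median 0.25). ins-7 stood at 6.99, 7.94 and 7.005 CPM in L4440 and 14.4, 13.3 and 11.8 CPM in B0395.3 (log2FC 0.85, SE 0.10, adjusted p = 3.22e-05) and ins-2 at 1.71, 1.60 and 2.73 CPM and 6.53, 7.97 and 8.34 CPM (log2FC 1.91, SE 0.18, adjusted p = 4.48e-06). Every treated library was above every control. DESeq2 called 6 higher, and a stricter minimum of 50 counts left 4. Insulin-like peptides called lower numbered 1 without L4440 replicate 2 or 3 or B0395.3 replicate 1 or 2. Of 13 genes of the insulin signalling list 4 fell and 2 rose, or 30.8% and 15.4% against 14.6% and 12.6% of all genes tested. Of its members, lea-1, of a late embryogenesis abundant protein, fell from 1116, 1170 and 1183 CPM to 699.7, 732 and 708 CPM (log2FC -0.70, SE 0.04, adjusted p = 5.47e-08), as did daf-18 (-0.19) and akt-1 (-0.17), while the receptor gene daf-2 (-0.11) and the kinase gene age-1 (-0.06) were not called. The kinase gene sgk-1 (0.26) and the transcription factor gene daf-16 (0.11) rose. Of these, the call of sgk-1 without B0395.3 replicate 3 (adjusted p = 0.0508) and that of daf-16 without L4440 replicate 1 or 2 or B0395.3 replicate 1 or 2 or 3 (adjusted p = 0.0763 to 0.159) were lost. Insulin signalling genes called higher numbered 1 without L4440 replicate 1 or 2 or B0395.3 replicate 1 or 2 and 0 without B0395.3 replicate 3. Of 182 nuclear hormone receptors 20 rose and 7 fell, or 10.99% and 3.85% against 12.6% and 14.6% of all genes tested. Receptors called higher numbered 12 without B0395.3 replicate 1 and 11 without L4440 replicate 2.

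Smaller families added single genes with clear shifts. Of 30 short-chain dehydrogenase genes 13 fell and 1 rose. dhs-3, whose product sits on lipid droplets of the intestine, went from 87.9, 82.2 and 88.3 CPM in L4440 to 54.3, 51.7 and 53.5 CPM in B0395.3 (log2FC -0.70, SE 0.04, adjusted p = 3.64e-08), and dhs-7 from 3.11, 2.97 and 3.89 CPM to 0.885, 0.914 and 0.897 CPM (log2FC -1.89, SE 0.16, adjusted p = 2.08e-06). Neither overlapped between the groups. The globin gene glb-1 fell from 22.9, 22.9 and 22.3 CPM to 13.9, 14.9 and 14.7 CPM (log2FC -0.65, SE 0.06, adjusted p = 5.44e-06). Of the 40 globin and guanylyl cyclase genes it alone was called lower. In that list 6 rose, or 15% against 12.6% of all genes tested. Of 71 MATH and BTB genes 11 rose and 4 fell, or 15.5% and 5.63% against 12.6% and 14.6% of all genes tested, with btb-11 at 9.27, 7.41 and 8.32 CPM and 13.3, 13.7 and 13.3 CPM (log2FC 0.69, SE 0.09, adjusted p = 7.12e-05). MATH and BTB genes called lower numbered 2 without L4440 replicate 1 or B0395.3 replicate 1.

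Among secreted neuronal proteins, neuropeptide genes rose about as often as other genes. Of 85 neuropeptide genes 10 rose and 1 fell, or 11.8% and 1.18% against 12.6% and 14.6% of all genes tested. The gene that fell, nlp-40, encodes a peptide that the intestine releases to time defecation, and it stood at 125, 121.6 and 121.5 CPM in L4440 and 98.5, 103 and 100.4 CPM in B0395.3 (log2FC -0.28, SE 0.03, adjusted p = 2.53e-05). flp-14 rose from 9.13, 10.2 and 8.88 CPM to 12.1, 12.1 and 12.05 CPM (log2FC 0.36, SE 0.08, adjusted p = 0.0035). Of 12 zig genes, which encode secreted immunoglobulin-domain proteins, 4 rose and 2 fell, or 33.3% and 16.7%. zig-3 stood at 3.05, 3.10 and 2.96 CPM and 10.7, 10.7 and 12.5 CPM (log2FC 1.90, SE 0.10, adjusted p = 2.11e-08), and zig-12 at 18.7, 18.02 and 17.2 CPM and 9.42, 10.6 and 10.8 CPM (log2FC -0.81, SE 0.10, adjusted p = 5.68e-05). Both lay apart from their controls, in opposite directions. Neuropeptide genes called higher numbered 5 without L4440 replicate 1 and 3 without L4440 replicate 2 or B0395.3 replicate 3, and zig genes called higher numbered 2 without L4440 replicate 1 or 3 or B0395.3 replicate 2 or 3.

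**Figure D5:**
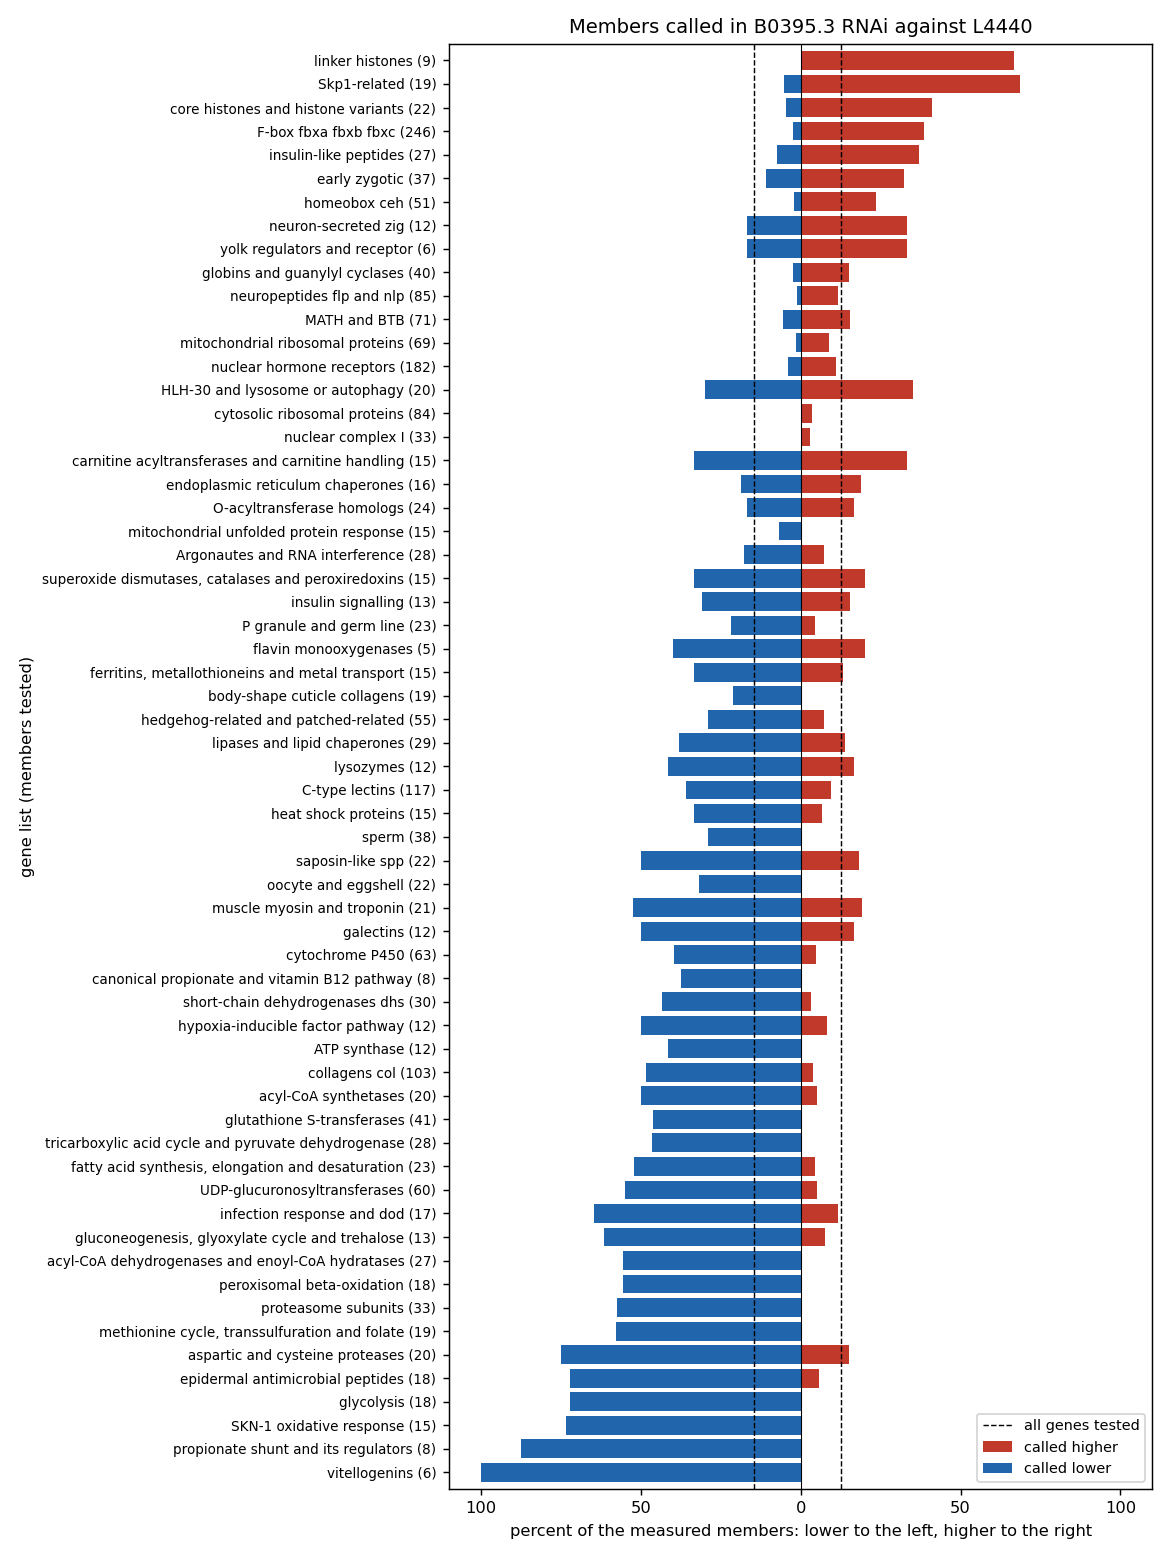
Percent of the measured members of each of 61 gene lists that were called lower (blue, to the left) or higher (red, to the right) in B0395.3 RNAi against L4440, with the number of members tested after each name. Dashed lines mark the shares among all 14622 genes tested (12.6% higher, 14.6% lower). Linker histones and Skp1-related genes reach farthest to the right, and vitellogenins and the propionate shunt farthest to the left.

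The largest rises and falls included genes of no list. T22F3.11 showed the largest rise among called genes of at least 5 CPM, from 0.798, 1.55 and 1.29 CPM to 11.8, 17.2 and 15.2 CPM (log2FC 3.59, SE 0.20, adjusted p = 5.05e-08). The non-coding RNA Y53F4B.45 rose from 6.22, 6.07 and 5.34 CPM to 23.3, 22.2 and 26.9 CPM (log2FC 2.04, SE 0.09, adjusted p = 7.58e-09). The transcription factor genes zip-8, of the bZIP class, and unc-39, of the homeodomain class, rose from 22.2, 15.7 and 19.2 CPM to 55.6, 50.6 and 57.4 CPM and from 4.13, 3.90 and 4.50 CPM to 11.5, 12.1 and 11.9 CPM. F56A12.9 covers 9.40% of the exon bases of unc-39. Their fold changes were 1.52 and 1.499 on the log2 scale. The beta-tubulin gene tbb-4, known from ciliated neurons, rose by 1.63 and T26H5.9 by 1.48.

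Among falls, T05E12.6 went from 45.9, 38.4 and 35.2 CPM to 10.02, 7.48 and 8.56 CPM (log2FC -2.19, SE 0.14, adjusted p = 1.22e-07). F15E6.4 went from 27.2, 24.0 and 22.3 CPM to 5.60, 5.51 and 5.43 CPM (log2FC -2.15, SE 0.10, adjusted p = 9.13e-09), and pud-3 from 67.5, 65.0 and 63.7 CPM to 17.8, 12.3 and 16.8 CPM (log2FC -2.06, SE 0.14, adjusted p = 1.83e-07). A lack of overlap between the groups was a condition for choosing these genes. C35A5.3 (-2.33), T13F3.6 (-2.29), ZK228.4 (-1.96), col-140 (-2.09) and col-178 (-2.04) complete the 15 largest falls with the genes above and WBGene00016875 (-1.96), an identifier that the annotation used here does not hold. T13F3.8 covers 100% of the exon bases of T13F3.6, so its reads cannot be assigned.

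The direct comparison with H28O16.1 RNAi shows which of these levels also differed from a second RNAi treatment. It called 9158 genes, or 62.6% of those tested (32.1% higher and 30.5% lower in B0395.3), so a call in it is common. Of the genes tested, 8.35% were called higher in B0395.3 than in both other groups and 9.41% lower than in both. The vitellogenins were lower in B0395.3 than in H28O16.1 in 6 of 6 cases, with vit-3 at 532, 545 and 603 CPM in H28O16.1 (log2 difference -0.73, SE 0.04, adjusted p = 7.39e-09). fmo-2 stood at 1.88, 1.60 and 1.66 CPM there (log2 difference 4.87, SE 0.21, adjusted p = 5.11e-10) and lbp-8 at 10.3, 9.26 and 7.56 CPM (log2 difference -2.75, SE 0.14, adjusted p = 3.12e-09). The level of fat-5 was 167, 152 and 182 CPM (log2 difference -1.34, SE 0.06, adjusted p = 3.45e-10), and that of nlp-29 13.7, 14.0 and 14.1 CPM (log2 difference -1.52, SE 0.08, adjusted p = 1.83e-09). All of these lay on the same side of H28O16.1 as of L4440.

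Other genes stood below L4440 in both RNAi treatments. acdh-1 stood at 102, 86.9 and 74.7 CPM in H28O16.1 (log2 difference -0.82, SE 0.14, adjusted p = 0.000183) and hphd-1 at 54.02, 53.8 and 48.3 CPM (log2 difference -0.35, SE 0.09, adjusted p = 0.0033), so both treatments lay nearer to each other than to L4440. For pmp-5, at 9.19, 8.38 and 8.98 CPM, the difference was not called (log2 difference -0.13, SE 0.10, adjusted p = 0.254), nor for sams-1 (log2 difference -0.27, SE 0.14, adjusted p = 0.101). Some families with rises stood lower in H28O16.1: the median difference was 3.91 log2 units over the early zygotic genes, 1.06 over the F-box genes and 1.201 over the linker histones. Others did not: the median was 0.0003 over the MATH and BTB genes, -0.08 over the neuropeptide genes and -0.22 over the zig genes. Of the col genes 43 were higher and 32 lower in B0395.3 than in H28O16.1. L4440 serves as control in both RNAi comparisons, so their fold changes share its libraries.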

How the data were processed

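Whole-number counts per gene and library, deposited by the authors without normalization, were the input. Per the submitters' processing notes, the tools were bcl2fastq (1.8.4), STAR (2.4.1d) and featureCounts (1.4.6-p4), with the WBcel235 build; no source used here gives their settings or annotation. Per the labels' protocols, libraries were prepared with the TruSeq v2 RNA kit, which enriches poly(A) RNA and is unstranded, so reads of overlapping genes could not be told apart. A deposited RPKM table was not used.

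Genes were kept with edgeR's filterByExpr at a minimum count of 10, which left 14622 of 46748 identifiers; 46449 identifiers were in the annotation used for symbols and positions. Counts were scaled with TMM and fitted over all 9 libraries with edgeR 4.0.16 in R 4.3.3. Each comparison used its quasi-likelihood F-test with Benjamini-Hochberg adjustment over all genes tested, and an adjusted p under 0.05 was called. The SE is the size of the log2 fold change divided by the square root of F. Shares of counts were compared with exact permutation tests, whose smallest p was 0.1. Depth was 37279334 to 40227801 counts per L4440 library and 34805871 to 40990685 per B0395.3 library.

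Replicate numbers follow the order of the records and pair nothing. The calculation was tested on simulated data. Alternatives were RLE and upper-quartile scaling, no filter, a minimum count of 50, only the 6 libraries compared, each library left out in turn, and DESeq2 1.42.0. The members and the 61 gene lists were chosen with earlier results of these data known. Named genes were drawn from the RNAi targets, the fixed cell type markers and genes chosen by rule. The rules took the 15 largest rises and 15 largest falls among called genes of at least 5 CPM without overlap. Lists of up to 15 measured genes gave every member, and longer lists up to 8 members with the smallest p. Where a list's calls went both ways, up to 3 per direction were taken. Genes chosen after values were seen were also allowed. Not every gene so chosen is printed. Neighbours of B0395.3 were chosen by position. An overlap with other genes is stated where it covers more than 5% of a named gene's exon bases.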

Additional observations from a re-analysis of the deposited data

How the results depend on the processing

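The 3976 calls against L4440 ranged from 2949 to 3268 when 1 library was left out (higher 1301 to 1512, lower 1601 to 1784) and were 3925 with RLE scaling, 3935 with upper-quartile scaling, 4190 with no filter, 3693 at a minimum count of 50, 5132 with only the 6 libraries compared and 3309 with DESeq2, of which 3258 were also called by the main test. No gene called by both was called in the opposite direction. Calls over 2-fold fell from 648 to 396 at a minimum count of 50, where fewer genes were tested, and lay between 593 and 674 without 1 library. Calls against H28O16.1 lay between 8355 and 9255, calls among listed genes between 653 and 722, the log2 fold change of B0395.3 between -1.41 and -1.20, and the vitellogenin difference between -1.44 and -1.36 percentage points without 1 library. Of 222 genes compared over 12 alternatives, 201 kept direction and side of the threshold. Without 1 library, 6 genes that were not called turned sign: cpt-3 (-0.21 to 0.084), elt-2 (-0.023 to 0.059), fmo-1 (-0.15 to 0.16), hsp-6 (-0.042 to 0.060), linc-7 (-0.14 to 0.057) and oct-1 (-0.39 to 0.0088). The cause was not tested. Lists with 1 called gene in a direction often had 0 when 1 library was left out. Among lists with more than 1 called gene in a direction, other settings moved some counts by over 1.5 times. With only the 6 libraries compared, higher calls went from 3 to 6 for cytochrome P450, 3 to 9 for endoplasmic reticulum chaperones, 3 to 13 for cytosolic ribosomal proteins (11 with no filter) and 6 to 21 for mitochondrial ribosomal proteins (15 with upper-quartile scaling), and lower calls from 5 to 9 for heat shock proteins, 5 to 9 for P granule genes and 6 to 10 for F-box genes. With DESeq2, higher calls went from 11 to 6 for C-type lectins, 10 to 6 for insulin-like peptides, 20 to 13 for nuclear hormone receptors, 4 to 2 for zig and for oac genes and 2 to 1 for yolk regulators, and lower calls from 5 to 3 for carnitine genes and antioxidant enzymes (also 3 with RLE scaling for the latter), 4 to 1 for early zygotic genes, 2 to 1 for insulin-like peptides and 11 to 0 for sperm genes. At a minimum count of 50, higher calls were 6 for C-type lectins, 4 for insulin-like peptides and 2 for oac genes, and lower calls 2 for early zygotic genes, 1 for insulin-like peptides, 1 for sperm genes and 0 for body-shape collagens (7 with no filter, 4 in the main test), with fewer genes tested. No paired analysis was run because the labels and columns carry no replicate numbers. The library numbers repeat the groups in the same order, but no label says that such a set was handled together. An effect shared within such sets was not tested. Low counts and 3 libraries per group limit what small differences could be detected.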

Other observations

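Several other gene lists were measured. Of 33 proteasome subunit genes 19 were called lower and 0 higher, all by small amounts (median -0.10, lowest -0.19). Of 84 cytosolic ribosomal protein genes 3 were called higher and 0 lower, and they took 7.49%, 7.42% and 7.07% of the counts in L4440 and 7.98%, 7.93% and 7.81% in B0395.3. Of 69 mitochondrial ribosomal protein genes 6 were higher and 1 lower, or 8.70% and 1.45% against 12.6% and 14.6% of all genes tested. Mitochondrial ribosomal genes called higher numbered 15 with upper-quartile scaling and 21 with only the 6 libraries compared, where cytosolic ribosomal genes called higher numbered 13. Proteasome genes called lower numbered 9 without L4440 replicate 1, 12 without B0395.3 replicate 1 or 2 and 6 without L4440 replicate 2 or B0395.3 replicate 3, and cytosolic ribosomal genes called higher numbered 1 without L4440 replicate 3 or B0395.3 replicate 2, and mitochondrial ribosomal genes called higher numbered 2 to 3 in the 6 fits that each left out 1 library. Of 15 heat shock genes 1 was higher (6.67%) and 5 lower (33.3%). Of 16 endoplasmic reticulum chaperone genes 3 were higher and 3 lower (18.75% each). Of 15 superoxide dismutase, catalase and peroxiredoxin genes 3 were higher (20%) and 5 lower (33.3%). Among all genes tested, 12.6% were called higher and 14.6% lower. Heat shock genes called lower numbered 2 without L4440 replicate 1 or 2 or B0395.3 replicate 3 and 3 without B0395.3 replicate 1, and chaperone genes called lower numbered 1 without L4440 replicate 2, and antioxidant genes called higher numbered 1 without L4440 replicate 2, and antioxidant genes called lower numbered 2 to 3 in the 6 fits that each left out 1 library.

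Of 24 oac acyltransferase homologs 4 rose and 4 fell (16.7% each). Of 12 galectins 6 fell (50%) and 2 rose (16.7%). Of 15 genes of metal storage and transport 5 fell (33.3%) and 2 rose (13.3%). Among all genes tested, 12.6% were called higher and 14.6% lower. Oac genes called higher numbered 2 without B0395.3 replicate 3, and oac genes called lower numbered 2 without B0395.3 replicate 2, and metal genes called higher numbered 1 without L4440 replicate 1 or 3 or B0395.3 replicate 1 or 2.

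Classes of RNA differed in direction. Of 492 pseudogenes tested, 18.5% were called higher and 3.25% lower, against 12.3% and 15.2% of 13885 protein-coding genes. Of 66 genes annotated as ncRNA, 14 were higher and 1 lower, and of 42 lincRNA genes 7 were higher and 2 lower. By nuclear chromosome, the share called lower ran from 11.6% of 2300 genes on III to 18.3% of 2864 genes on V. The share called higher ran from 11.3% on V to 15.6% of 2569 genes on II. Of 13 genes of the mitochondrial genome 1 was lower and 0 were higher. By mean level, genes of 1 to 10 CPM were called higher in 17.5% and lower in 15.5% of 4141 cases, and genes under 1 CPM in 7.29% and 5.96% of 3169 cases.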
